A study of Mus musculus with 6 samples.

Results

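The carnitine acyltransferases and the carnitine uptake transporters were examined as a group of 7 genes, Cpt1a, Cpt1c, Cpt2, Crat, Crot, Slc22a4 and Slc22a5, in brown and white fat of the mouse. The members were chosen by gene symbol: every probe set that the array's annotation assigns to 1 of these symbols was taken, which gave 14 probe sets of 45037. Each of the 14 is assigned to a single symbol. Of these, 10 probe sets, standing for 6 of the 7 genes, passed the filter on low values, which asked for a present call on at least 3 of the 6 arrays. Cpt1c did not pass it.

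Long-chain fatty acids enter mitochondria as carnitine esters. A carnitine palmitoyltransferase of the outer membrane (a Cpt1 form) moves the acyl group from coenzyme A to carnitine, a translocase carries the ester across the inner membrane, and Cpt2 on the inner side gives the acyl group back to coenzyme A for beta-oxidation. Crat does the same exchange for acetyl and other short chains, and Crot for medium chains in peroxisomes. Carnitine itself comes from the diet or from synthesis in liver and kidney, and most other tissues take it up through the plasma membrane transporter that Slc22a5 encodes. Brown fat burns fatty acids in its mitochondria for heat, whereas white fat stores them as triglyceride.

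The arrays held interscapular brown adipose tissue (3 arrays) and epididymal white adipose tissue (3 arrays) of male C57BL/6 mice aged 10 to 12 weeks, without treatment and at ambient temperature. The design names 3 mice as the source of both tissues and does not say which arrays share a mouse. Type of fat and body site cannot be told apart, because each type was sampled at 1 site. In whole tissue, fewer cells of a type and less RNA per cell cannot be told apart either. RNA was read on Affymetrix mouse 430_2 arrays, where each probe set measures a transcript with several short probes. Signals below are quantile-normalised, in arbitrary units, and differences are brown minus white in log2 signal.

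The tissue labels of the array files fitted the brown fat gene Ucp1, with 12942 ± 267 in brown and 26.1 ± 31.7 in white (SD, n = 3), and the white fat hormone gene Lep, with 54.2 ± 19.2 and 1743 ± 16.5. A table of processed values deposited for the whole series runs opposite in tissue, and each of its columns correlated best with the array file of the other tissue and the same number (r from 0.840 to 0.874 over 45037 probe sets). Directions are those of the array files. Present calls covered 35.6% to 37.5% of probe sets on brown arrays and 45.2% to 45.8% on white arrays, and the median deposited signal was 37.6 to 39.4 and 52.1 to 52.5. The actin 3'/5' signal ratio, a sign of RNA integrity, ran from 1.36 to 2.24 in brown and from 1.19 to 1.73 in white.

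Of the 6 member genes tested, 4 were higher in brown (Cpt2, Crat, Slc22a5 and Crot) and 2 were higher in white (Cpt1a and Slc22a4). Slc22a4 passed the filter only through its white arrays, so its call adds no support for the direction. Across the array 28.2% of 10264 genes were higher in brown and 32.7% higher in white, 61% together, at an adjusted p below 0.05 in limma. These were 2895 and 3361 genes, and with the deposited scaling 1535 and 5760, so the split between tissues depends on the scaling. A member's passing the test is therefore close to what an arbitrary gene did. The difference of Cpt2 lay above that of 97.0% of all genes tested, Crat above 96.3%, Slc22a5 above 93.6% and Crot above 82.6%. Cpt1a lay above 4.26% of genes. Slc22a4 is given no place, because its signal was not above background on any brown array and the size of its difference is uncertain.

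**Figure D1:**
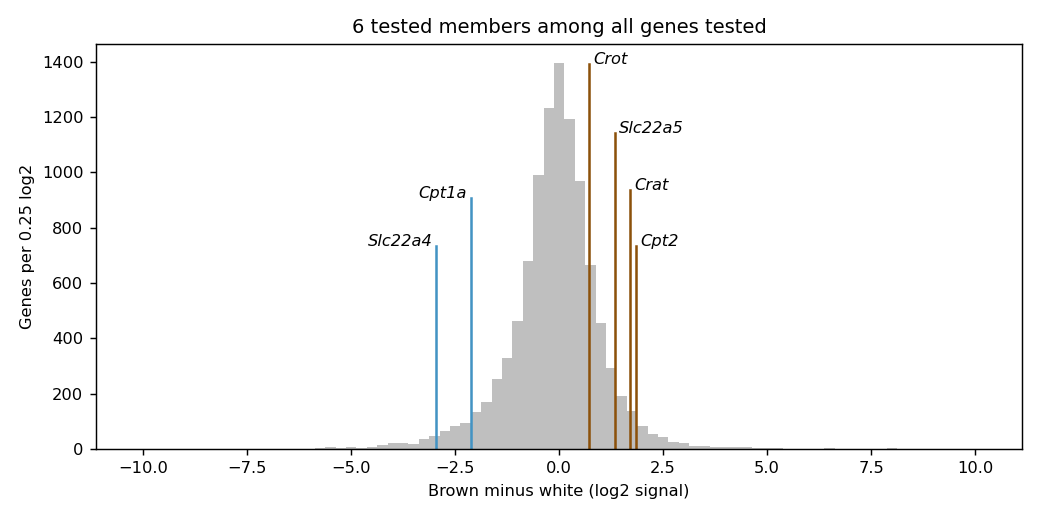
The grey histogram counts all 10264 genes tested by their brown minus white log2 difference, in steps of 0.25, and vertical lines mark the 6 tested members (line height has no meaning). Cpt1a stands at -2.12, and Crot, Slc22a5, Crat and Cpt2 between 0.71 and 1.85. The line of Slc22a4, at -2.95, is a fitted value from brown signals below background, was -0.90 with 64 signal units added, and is not a measured position.

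At the level of probe sets, 6 of the 10 tested were higher in brown and 4 in white, against 24.6% and 29.9% (54.5% together) of 19819 probe sets tested. The 4 in white include that of Slc22a4, which passed the filter only through its white arrays. The brown and white arrays did not overlap for any of these 10, as for 62.4% of all tested probe sets. Including the 4 probe sets that were not tested, the arrays did not overlap for 14 of 14, against 41.8% of all 45037. Of these 4, 2 were absent on all 6 arrays. In the deposited signals the dimmer Crot probe set did overlap, with 47.2 to 54.9 in brown and 41.7 to 62 in white. Probe sets of the same gene had differences of the same sign in each of the 5 genes with more than 1.

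**Figure D2:**
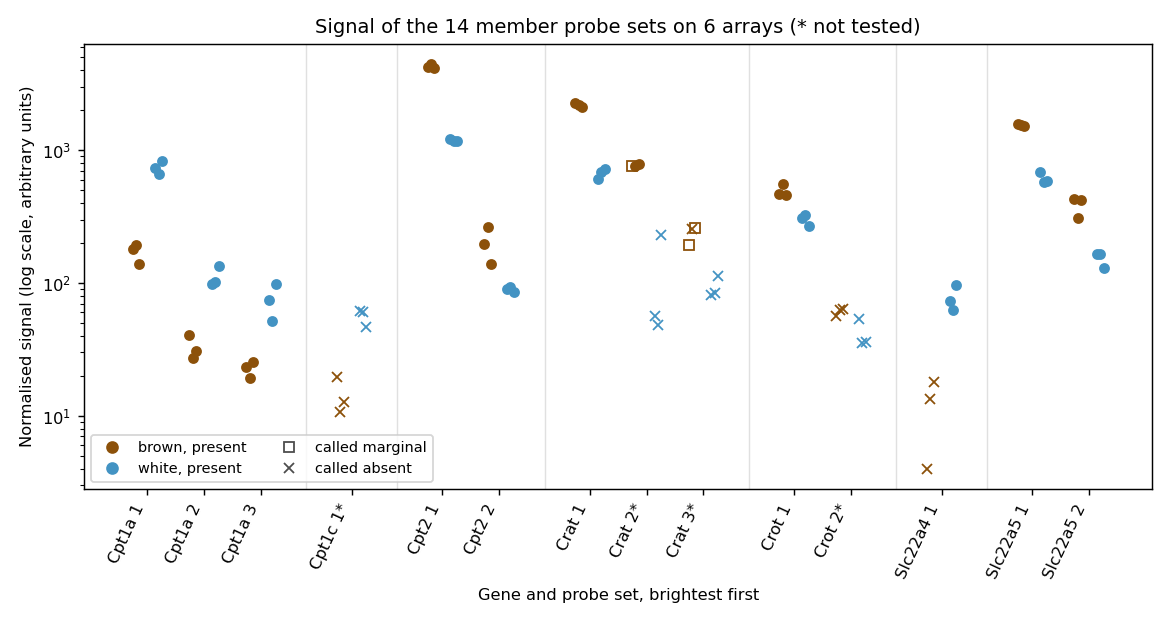
Normalised signal (log axis, arbitrary units) of all 14 member probe sets on each array, with brown arrays in brown and white arrays in blue. Filled circles are present calls, open squares marginal calls and crosses absent calls, and a star marks a probe set that was not tested. The Cpt2, Crat, Crot and Slc22a5 probe sets are higher on the brown arrays, and those of Cpt1a, Cpt1c and Slc22a4 on the white arrays.

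Cpt1a encodes the carnitine palmitoyltransferase of the outer mitochondrial membrane best known from liver, the step that malonyl-CoA inhibits. Its brightest probe set read 181, 194 and 140 on the brown arrays and 737, 659 and 822 on the white arrays. Every white array was thus well above every brown array. The means were 172 ± 28.3 and 739 ± 81.4 (SD, n = 3), a log2 difference of -2.12 ± 0.14 (SE; limma adjusted p = 6.89e-07), or 4.33-fold towards white. The other 2 probe sets of the gene were dimmer and were called present on all 6 arrays. The second probe set had 32.8 ± 6.73 in brown and 111 ± 20.6 in white (-1.77, limma adjusted p = 0.000129). The dimmest had 22.7 ± 3.19 and 74.5 ± 22.8 (-1.68, limma adjusted p = 0.000936). The 3 readings of Cpt1a therefore gave the same direction, with folds from 3.20 to 4.33.

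Markers of several cell types were higher in white, like Cpt1a, and so were 32.7% of all genes tested. All 5 white adipocyte markers (Lep, Nnat, Sncg, Agt and Retn) were higher in white, with a median of -5.12. Of 3 tested markers of adipocytes of either kind, Adipoq was higher in white (-0.47), and Fabp4 (-0.03) and Pparg (0.11) were not called. All 5 macrophage markers examined (Cd68, Adgre1, Csf1r, Lyz2 and C1qa) were higher in white, with a summed signal of 2014 to 2513 on brown and 13463 to 13846 on white arrays. All 5 mesothelial markers (Msln, Upk3b, Lrrn4, Wt1 and Krt19) were higher in white, with summed signals of 146 to 200 and 1864 to 2242, and Msln, Upk3b and Krt19 were called absent on every brown array. Of 5 endothelial markers 3 were higher in white (Pecam1, Cdh5 and Vwf), with sums of 1621 to 1843 and 2340 to 2451. Tek (-0.25) and Kdr (0.04) were not called. Agt and Pecam1 were called absent on every brown array too. Like Msln, Upk3b and Krt19, they passed the filter only through their white arrays, so these calls add no support for the direction. The part of these cell types in the Cpt1a signal was not tested.

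Cpt1c encodes a form found mainly in neurons, at the endoplasmic reticulum. Its only probe set, read 19.7, 10.6 and 12.7 on the brown arrays and 61.3, 60.0 and 46.7 on the white arrays. The white arrays read higher, but the probe set was called absent on all 6, with detection p-values of 0.171 to 0.754, so its signal was below background in both tissues and no fold is given. Of 5 neuronal markers, Snap25, Tubb3 and Elavl4 were absent on all 6 arrays, and Nefl was called present on 1 brown and 1 white array. Syt1, the 1 that was tested, was higher in brown (0.86, limma adjusted p = 0.0185). The summed signal of the 5 was 97.0 to 115 in brown and 81.6 to 101 in white. It includes signals of absent markers and is not a measure of neurons.

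Cpt1b, the muscle form of the outer membrane enzyme, is not a member because the 1 probe set that carries its symbol is shared with Chkb, a choline kinase, and the locus Gm44502. That probe set, read 3519, 3383 and 3306 in brown and 66.9, 53.7 and 34.3 in white, where it was called absent on all arrays. The ratio of measured signals was 68.4-fold towards brown. It rests on white signals below background, so its size is uncertain. The signal cannot be assigned to one of the 3 genes. The probe set passed the filter only through its brown arrays, so no test is given for it. Of 5 skeletal muscle markers, Ckm, Tnnt3 and Mylpf were absent on all 6 arrays and Myh4 was present on 2 brown arrays. Acta1, the 1 of 5 that was tested, was not called (limma adjusted p = 0.113). Acta1 read 97.7, 145 and 2.16 on the brown arrays. The 5 summed to 133 to 408 in brown and 258 to 295 in white, which includes signals of absent markers and is not a measure of muscle.

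Cpt2, which rebuilds acyl-CoA inside the mitochondrion, was the brightest member. Its main probe set read 4214, 4424 and 4176 on the brown arrays and 1217, 1174 and 1167 on the white arrays. The arrays of each tissue were close together and far from those of the other. The means were 4271 ± 134 and 1186 ± 27.3 (SD, n = 3), a log2 difference of 1.85 ± 0.05 (SE; limma adjusted p = 2.73e-09), or 3.60-fold towards brown. A much dimmer probe set read 198, 262 and 139 in brown and 89.5, 93.2 and 85.0 in white. Its difference was smaller and less exact, at 1.11 ± 0.21 (SE; limma adjusted p = 0.00147), with the brown arrays widely spread.

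Crat, the carnitine acetyltransferase, had 3 probe sets, of which only the brightest was tested. It read 2265, 2177 and 2106 in brown and 608, 687 and 719 in white. All brown arrays were higher, with a difference of 1.70 ± 0.08 (SE; limma adjusted p = 4.59e-08), or 3.26-fold. The series' table of processed values gave a smaller difference of 0.76 (limma adjusted p = 0.000104). A second probe set read 757, 757 and 787 in brown and 56.5, 48.3 and 229 in white, with white replicate 3 well above the other white arrays. It was called present on 2 brown arrays and absent on all white arrays. The third had 236 ± 36.8 in brown and 92.0 ± 17.3 in white, without a present call on any array.

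Crot, the carnitine octanoyltransferase of peroxisomes, differed least among the tested members. Its tested probe set read 468, 555 and 460 on the brown arrays and 310, 327 and 266 on the white arrays. The tissues did not overlap, and the difference was 0.71 ± 0.12 (SE; limma adjusted p = 0.000429), or 1.64-fold towards brown. The call depended on the scaling of the arrays: the deposited signals were 401, 479 and 402 in brown and 366, 382 and 323 in white, a difference of 0.26 that was not called (limma adjusted p = 0.0589). Scaling to the spike-in controls gave 0.26 too (adjusted p = 0.175). Both of these scalings move the median of all genes tested, from -0.04 to -0.50. The series' table gave Crot a difference of 0.43. The second probe set, was absent on all 6 arrays.

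**Figure D3:**
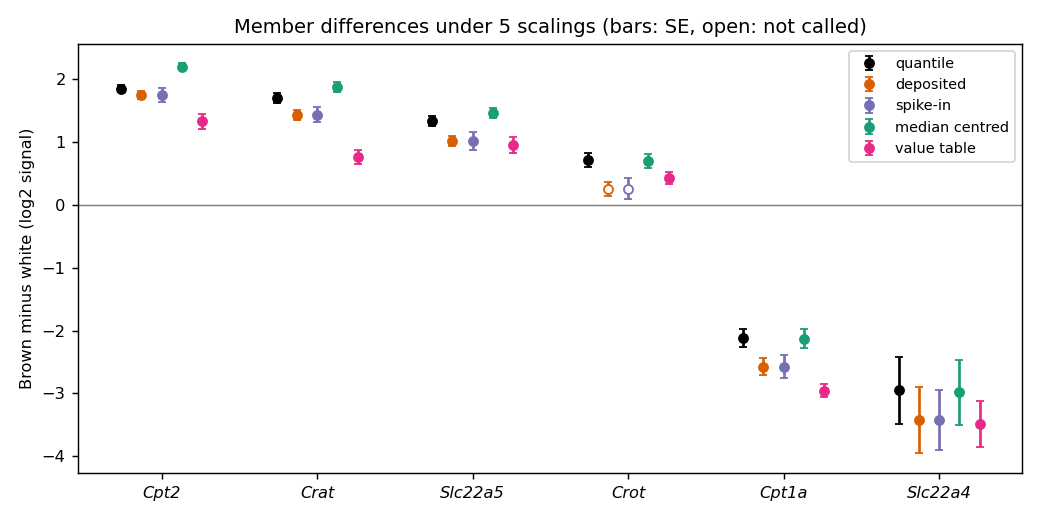
Brown minus white log2 difference of the 6 tested member genes under quantile normalisation (black), the deposited scaling, spike-in scaling, median centring and the series' table of processed values with its sign turned. Bars are the standard error from limma and open circles mark differences that were not called. Directions were the same in all 5, and Crot was not called with deposited and spike-in scaling.

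The carnitine transporters went opposite ways. Slc22a5 encodes the high-affinity, sodium-dependent carnitine transporter Octn2. Its brighter probe set read 1559, 1540 and 1529 in brown and 681, 576 and 582 in white. The difference was 1.34 ± 0.08 (SE; limma adjusted p = 3.36e-07), or 2.52-fold towards brown. The second probe set, read 428, 307 and 421 in brown and 165, 165 and 130 in white, with nearly the same difference of 1.32 ± 0.16 (SE; limma adjusted p = 6.55e-05).

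Slc22a4 encodes Octn1, a related carrier that prefers ergothioneine and moves carnitine weakly. Its probe set read 3.98, 13.4 and 18.1 in brown, all called absent, and 72.8, 63.0 and 97.1 in white, all called present. Signal was thus above background only in white. Measured means were 11.8 ± 7.19 and 77.7 ± 17.6 (SD, n = 3). The ratio was 6.47-fold towards white with brown set at the lowest signal called present on each array, where it was dimmer. That lowest signal is not a detection limit for this probe set, so the ratio is not a lower bound. The probe set passed the filter only through its white arrays, so its test adds no support for the direction. With 64 signal units added before taking logarithms the log2 difference was -0.90 in place of -2.95. The white adipocyte, macrophage and mesothelial markers given beside Cpt1a, and 3 of the 5 endothelial ones, were higher in white like Slc22a4. The calls of those absent on every brown array add no support for the direction. The part of these cell types was not tested.

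Promoter windows show how the members that differed look upstream of their starts. RefSeq windows of GRCm38.p6, from 250 bases before to 50 after the start, were found for 6 of the 7 genes, and those of the pairs that went opposite ways are shown here 5′ to 3′, with every match to a searched motif in capitals. They lie at chr19:3323051-3323350 (plus strand) for Cpt1a, chr4:107923540-107923839 (minus strand) for Cpt2, chr11:53891654-53891953 (minus strand) for Slc22a5 and chr11:54028055-54028354 (minus strand) for Slc22a4.
Cpt1a: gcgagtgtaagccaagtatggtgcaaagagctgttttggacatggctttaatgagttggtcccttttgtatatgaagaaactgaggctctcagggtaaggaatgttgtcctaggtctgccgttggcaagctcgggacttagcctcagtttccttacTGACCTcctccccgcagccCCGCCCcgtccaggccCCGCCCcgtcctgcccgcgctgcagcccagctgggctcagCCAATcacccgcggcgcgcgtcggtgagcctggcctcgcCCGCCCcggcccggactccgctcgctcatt
Cpt2: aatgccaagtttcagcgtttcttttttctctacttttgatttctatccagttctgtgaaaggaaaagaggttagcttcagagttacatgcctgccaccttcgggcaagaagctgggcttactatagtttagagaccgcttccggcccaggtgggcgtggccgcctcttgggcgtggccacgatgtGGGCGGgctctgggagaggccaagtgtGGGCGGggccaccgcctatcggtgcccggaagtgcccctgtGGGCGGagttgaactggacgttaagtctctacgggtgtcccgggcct
Slc22a5: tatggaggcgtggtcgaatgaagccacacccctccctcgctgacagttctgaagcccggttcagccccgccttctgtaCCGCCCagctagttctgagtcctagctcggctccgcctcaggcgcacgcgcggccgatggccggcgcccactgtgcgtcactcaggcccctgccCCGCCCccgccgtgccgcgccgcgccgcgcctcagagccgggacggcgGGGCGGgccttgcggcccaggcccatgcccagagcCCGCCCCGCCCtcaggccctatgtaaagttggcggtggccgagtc
Slc22a4: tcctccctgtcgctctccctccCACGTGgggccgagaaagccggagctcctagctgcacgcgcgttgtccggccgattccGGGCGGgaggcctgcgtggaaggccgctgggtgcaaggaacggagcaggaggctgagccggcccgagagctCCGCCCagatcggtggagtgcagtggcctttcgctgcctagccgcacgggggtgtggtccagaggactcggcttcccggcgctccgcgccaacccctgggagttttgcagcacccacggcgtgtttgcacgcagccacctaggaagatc

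Motifs were searched as exact letters on both strands. The GC box GGGCGG was in all 6 member windows and in 35.7% of the 32851 windows of the table, with 5 matches in Slc22a5 (the last 2 overlap), 3 each in Cpt2 and Cpt1a and 2 in Slc22a4. The Cpt1a window also holds CCAAT (in 37.4% of windows) and the nuclear receptor core AGGTCA on the minus strand (in 16.3%), and the Slc22a4 window the E-box CACGTG (in 7.15%). The direct repeat of AGGTCA with 1 base between, the NRF1 core palindrome, the CRE TGACGTCA and TATAAA were in none of the 6 windows, and in 0.0396%, 0.971%, 1.79% and 13.6% of all windows. The windows of Slc22a5 (72.7% G and C), Slc22a4 (69.0%), Cpt1a (62.3%) and Cpt2 (57.3%) were richer in G and C than the median window (52.7%). GC boxes occurred in members higher in either tissue.

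Within-array differences between members show whether they changed unequally. For each of 5 pairs the log2 signal of one gene was subtracted from that of the other on the same array, and values are given relative to the mean of the white arrays. Cpt2 minus Cpt1a was 3.85, 3.83 and 4.21 on the brown arrays and 0.04, 0.15 and -0.18 on the white arrays. The signal of Cpt2 thus stood higher against that of Cpt1a on every brown array, by 3.96 in the mean and by 4.32 with the deposited scaling. Cpt1a is only one of the outer membrane forms, and the shared probe set that carries the Cpt1b symbol ran the other way from Cpt1a. Slc22a5 minus Slc22a4 was 5.61, 3.84 and 3.40 in brown and 0.22, 0.19 and -0.42 in white, a difference of 4.29 that rests on Slc22a4 signals below background in brown and was 2.15 with 64 signal units added. Crat minus Crot differed by 0.99, with no overlap of the tissues. For these 3 pairs the exact permutation p was 0.1 (two-sided), the smallest that 3 arrays against 3 can give, and 0.167 after Benjamini-Hochberg adjustment over 5 pairs.

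Cpt2 minus Crat differed by only 0.14 (exact permutation p = 0.3, adjusted 0.375), and white replicate 1 lay within the brown range. This difference was 0.32 with the deposited scaling and turned to -0.22 when the tested probe sets of each gene were averaged. Cpt1a minus Cpt1c differed by -0.11 (exact permutation p = 0.7, adjusted 0.7), but Cpt1c was below background throughout.

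**Figure D4:**
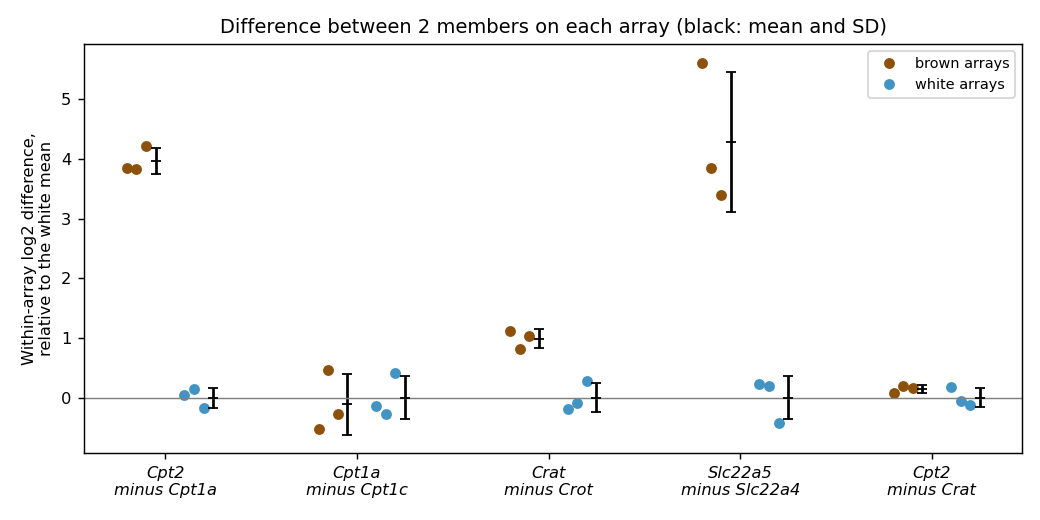
Log2 signal of one member minus another on the same array, relative to the mean of the white arrays (zero line), for 5 pairs. Points are arrays, brown on the left and white on the right of each pair, and black bars are mean and SD (n = 3). Cpt2 minus Cpt1a, Slc22a5 minus Slc22a4 and Crat minus Crot separate the tissues, and the other pairs do not.

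Around the members, the translocase Slc25a20, which carries acylcarnitines across the inner membrane, was higher in brown. Slc25a20 had 6189 ± 278 in brown and 1082 ± 40.8 in white (SD, n = 3), a difference of 2.52 (limma adjusted p = 6.92e-10). Slc25a29, a mitochondrial carrier of basic amino acids first described as carnitine carrier-like, had 182 ± 2.41 and 226 ± 9.98 (-0.31, limma adjusted p = 0.0300), and was no longer called (adjusted p from 0.0537 to 0.0894) when any array but white replicate 2 was left out. Slc16a9, a carnitine efflux transporter, was higher in white at 107 ± 13.8 against 54.2 ± 14.2 (-1.01, limma adjusted p = 0.00425). It was called present on only 1 brown array. The transporters Slc22a21, Slc22a16 and Slc6a14 were absent on all 6 arrays. Thus 1 of 3 tested shuttle partners was higher in brown and 2 in white, of 7 listed, against 28.2% and 32.7% of all genes tested. Cpt1b is listed but not counted, because its probe set is shared. The 3 tested genes have unlike roles, so the counts show no lean of the shuttle as a whole.

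Genes of carnitine synthesis were higher in brown in 4 of 4 tested cases of 5 listed, with a median difference of 0.74 against -0.04 for all genes, of which 28.2% were called higher in brown. In the series' table only 1 of the 4, Shmt2, was called. Tmlhe, the trimethyllysine dioxygenase of the first step, had 560 ± 86.2 against 311 ± 46.7 (0.85), and Aldh9a1, the aldehyde dehydrogenase, 1262 ± 23.2 against 811 ± 34.1 (0.64). Shmt1, a serine hydroxymethyltransferase, had a difference of 1.46, and Shmt2, its mitochondrial form, of 0.48. The Shmt2 difference turned to -0.06 with deposited or spike-in scaling, Tmlhe was not called with spike-in scaling (0.40, adjusted p = 0.0666), and the series' table gave -0.19 for Tmlhe, 0.06 for Aldh9a1 (adjusted p = 0.642) and 0.23 for Shmt1 (0.0590), none of them called. Shmt2 was also not called when brown replicate 2 (adjusted p = 0.0542), white replicate 2 (0.0733) or the array of white replicate 3 (0.0561) was left out. Bbox1, which makes the final step to carnitine, was absent on all 6 arrays, with 78.5 ± 51.4 in brown and 51.6 ± 35.8 in white.

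Lists for the steps before and after the shuttle are set beside all genes tested, of which 28.2% were called higher in brown and 32.7% in white. Among acyl-CoA synthetases and fatty acid transport proteins, the test called 3 of 6 in favour of brown and 2 in favour of white, with a median of 0.65. Slc27a2, absent on every white array, read 1890 ± 106 in brown and 12.6 ± 14.1 in white (SD, n = 3), and no fold is given. Slc27a2 passed the filter only through its brown arrays, so its call adds no support for the direction. Acsl5 and Acsl3 were higher in brown by log2 differences of 2.41 and 1.26. Slc27a1 (-0.70) and Acsl4 (-0.49) were higher in white. The Acsl4 call was lost without white replicate 1 (adjusted p = 0.0646). Of 9 tested genes listed for malonyl-CoA, the inhibitor of Cpt1 enzymes, 7 favoured brown and 2 white, with a median of 0.97. Of the 9, 4 favoured brown in the series' table. The genes of this list have unlike roles, so the counts show no direction for malonyl-CoA itself, and a net effect was not tested. Acacb, the acetyl-CoA carboxylase at the mitochondrial surface, had 4588 ± 183 against 802 ± 26.2 (2.52), opposite in direction to Cpt1a. Mlycd, the malonyl-CoA decarboxylase, was higher in brown too (1.11, limma adjusted p = 5.6e-05). The AMP-activated kinase subunits Prkag2 (1.35) and Prkaa2 (1.22) were higher in brown. Prkaa1 (-0.96) and Prkab2 (1.60-fold by measured signals, absent on every brown array) were higher in white. Prkab2 passed the filter only through its white arrays, so its call adds no support for the direction.

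All 15 mitochondrial beta-oxidation genes examined were higher in brown, with a median of 2.04 and Acaa2 (3.42), Acadvl (3.16) and Etfdh (2.84) at the top. The differences of Cpt2 and Crat lay below this median, and Cpt1a ran against all 15. Of 12 tested peroxisomal genes, where Crot acts, 9 favoured brown and 2 white, against those same shares of 28.2% and 32.7% of all genes, with a median of 0.83. The number favouring brown was 6 with spike-in scaling and in the series' table. Amacr (1.98), Abcd3 (1.93) and Decr2 (1.68) were higher in brown, and the transporter Abcd2 (-3.27) and Scp2 (-0.45) in white, the latter at 0.10 with median centring.

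**Figure D5:**
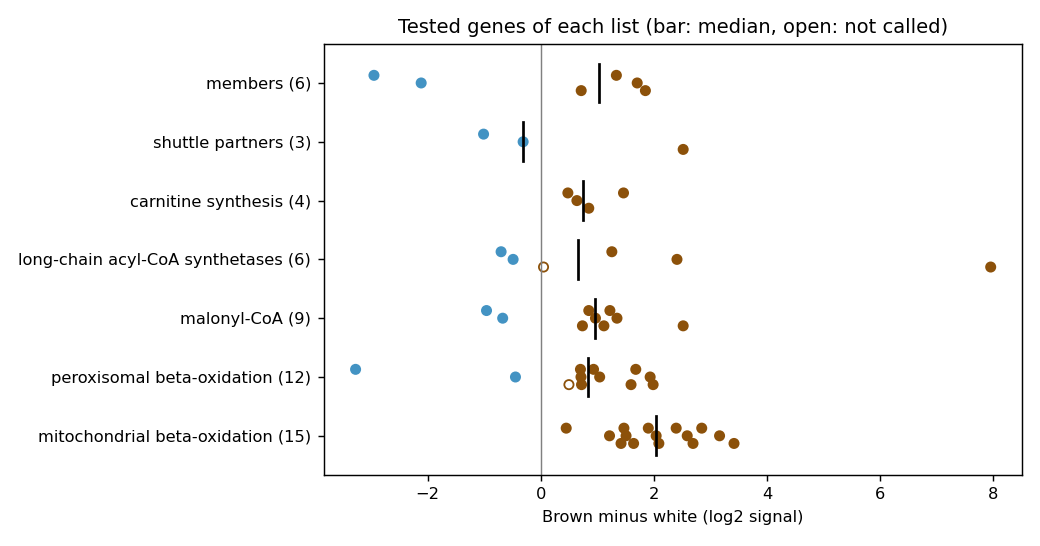
Brown minus white log2 difference of each tested gene, by list, with the number tested in brackets. Filled points passed the test (brown: higher in brown, blue: higher in white), open points did not, and black bars are list medians, which run from -0.31 for the shuttle partners to 2.04 for mitochondrial beta-oxidation. The shuttle partners shown do not include Cpt1b, whose probe set is shared, and their median is the value of Slc25a29 alone.

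The genes whose log2 signals over the 6 arrays, each centred on its own mean, lay nearest to a member were found by Euclidean distance among the genes tested. Nearest to Cpt1a were Osmr (distance 0.22) and Tpm4 (0.22), and to Cpt2 were Pam16 (0.09) and Gatd3a (0.11). Crat was matched by Ethe1 (0.12) and Mrpl15 (0.14), and Crot by Erlin2 (0.11) and Polr1d (0.13). Slc22a5 lay near Pcgf5 (0.07) and Nkiras1 (0.10), and Slc22a4 near C6 (0.34) and Alcam (0.74). With 2 tissues and 6 arrays these distances mostly reflect a like difference between the tissues.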

How the data were processed

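The deposited file of an array holds, per the file headers, 1 linear signal intensity per probe set with a present, marginal or absent call and its detection p-value. The sources used here do not state how the authors scaled the intensity or with which software. Per the labels, RNA was amplified from an oligo-dT primer and labelled with biotin, so probes far from the 3' end can read low. The 64 control probe sets were left out. Because 2% trimmed means spread by 37.2% between arrays, more than the 10% allowed, log2 signals were quantile-normalised. The 1 signal of 0 was set to 0.1. The test was that of limma 3.58.1 under R 4.3.3, lmFit followed by eBayes with a trend, with Benjamini-Hochberg adjustment over all 19819 probe sets or 10264 genes and a threshold of 0.05. A gene is read by its tested probe set of highest mean signal. Arrays were treated as independent samples, and their number limits the precision. Symbols come from the platform annotation (34945 probe sets with 1 symbol, 932 with several, 9160 with none).

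Means ± SD are of normalised signals, and folds are ratios of geometric means. List genes named are up to 3 called in the main direction and 2 in the other, with all shuttle partners and synthesis genes, and Mlycd. The fit was tested on simulated data. Members, lists and tests were chosen with earlier results of these data known. Alternatives changed the scaling, filter, added units, trend, block, probe set choice and source of values, and left out each array.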

Additional observations from a re-analysis of the deposited data

How the results depend on the processing

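The member genes kept their direction under all alternatives run for them, and all were called under each except Crot, at 0.26 with deposited scaling and with spike-in scaling, for the gene and for its probe set. For Slc22a4 this adds no support, because it passed the filter only through its white arrays. The 2 members higher in white became 1 with a filter of present calls on all 6 arrays, which Slc22a4 did not pass. Probe sets and genes higher in brown numbered 4885 and 2895 in the reported fit, 2535 and 1535 with deposited scaling, 2295 and 1376 with spike-in scaling, and 3252 and 1764 in the series' value table. Those higher in white numbered 5924 and 3361, then 10785 and 5760, 10112 and 5349, and 10689 and 5659, and 3944 probe sets among those present on all 6 arrays. Both of these scalings and the value table shift the median of all genes, to between -0.50 and -0.41. Carnitine synthesis genes higher in brown were 2 with spike-in scaling and 1 in the value table, and malonyl-CoA genes higher in brown 4 in the value table. Shuttle partners higher in white were 1 among probe sets present on all 6 arrays, in the value table and with the replicate block, and 1 to 2 with an array left out. Synthetases higher in white were 1 to 2 with an array left out, and peroxisomal genes higher in white 1 with median centring.

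Cpt2 minus Cpt1a was 4.32 with deposited scaling, 3.56 with 64 units added, 4.28 in the value table and 3.34 over the mean of probe sets. Slc22a5 minus Slc22a4 was 2.15 with 64 units added, and Crat minus Crot 0.33 in the value table. Cpt2 minus Crat was 0.32 with deposited scaling, 0.56 in the value table and -0.22 over the mean of probe sets. Cpt1a minus Cpt1c, with Cpt1c below background, was -1.15 with 64 units added, -2.12 in the value table, 0.15 over the mean of probe sets, and from -0.40 to 0.094 with an array left out (above zero without brown replicate 1 or white replicate 3). The cause was not tested. Among named list genes, Tmlhe turned to -0.19 in the value table, Shmt2 to -0.061 with deposited and -0.060 with spike-in scaling, and Scp2 to 0.10 with median centring.

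Same-numbered brown and white arrays did not deviate together (r of 0.02, -0.01 and -0.05), and arrays of unlike number did not either (r from -0.05 to 0.07). This check therefore cannot show which arrays share a mouse. The numbers are not taken as pairs because the design does not give the pairing. With the replicate number as a block, limma called the same 6 members, Cpt1a with an adjusted p of 5.46e-06 and Crot with 0.000409, and Slc25a29 was not called (0.0616). Without the detection filter, the Cpt1c probe set had an adjusted p of 0.00469 although absent on all arrays. Leaving out any array kept the member calls, with Cpt1a from -2.21 to -1.97, Cpt2 from 1.82 to 1.87, Crat from 1.63 to 1.75, Crot from 0.63 to 0.78, Slc22a4 from -3.39 to -2.29 and Slc22a5 from 1.29 to 1.41.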

Other observations

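Slc22a5 and Slc22a4 are neighbours on the same chromosome, with only Slc22a21, another carrier of the family, between them in the RefSeq gene order (GRCm38.p6, protein-coding genes, names only). The genes around them were looked at after the values of these transporters were seen. On the side of Slc22a5, the interferon regulatory factor Irf1 had 608 ± 51.1 in brown and 665 ± 10.8 in white (SD, n = 3) and was not called (-0.13, limma adjusted p = 0.206). Irf1 was called higher in white with deposited scaling (-0.52, adjusted p = 0.000459), with spike-in scaling (-0.52, 0.00290) and in the series' value table (-0.96, 0.000771). Rad50, a DNA repair gene, was higher in white (-1.39, adjusted p = 7.75e-06). On the side of Slc22a4, the collagen hydroxylase P4ha2 was absent on every brown array and 2.78-fold higher in white by measured signals. Pdlim4 was called present on 1 white array only. The cytokine genes Il5 and Csf2 and the transporter Slc22a21 were absent on all 6 arrays. Of these 9 genes 5 were tested. Slc22a5 was the 1 called higher in brown, and Rad50, Slc22a4 and P4ha2 were called higher in white. Of all genes tested 28.2% and 32.7% were so called, and 1 brown call among 5 is near that share. Slc22a4 and P4ha2 passed the filter only through their white arrays.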
